A study of Mus musculus with 6 samples.

Results

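The 49 genes described here encode the proteins that license replication origins, unwind DNA and copy it at the fork. They were chosen by gene symbol from a list, by a rule that uses no measured value, and all 49 of them, with 290 transcripts, were found among the 35970 gene symbols of the expression table. They were sorted by role into 10 steps, from origin recognition to the copying of chromatin. The libraries held ribosome-bound, polyadenylated RNA of mouse liver, 3 from mice whose injected plasmid carried a guide RNA against Neurl1b (Neurl1b CRISPRi) and 3 from mice whose plasmid carried a non-targeting guide. All 6 recipients were Fah-/-;dCas9+: they had no FAH, an enzyme needed to break down tyrosine safely, and carried dCas9, a Cas9 that binds DNA without cutting it and blocks transcription at the site a guide points to (CRISPR interference, CRISPRi). In both groups the transposon plasmid (10 µg) also carried Fah and a GFP-tagged ribosomal protein L10a, and an AAV8 virus that drives Cre from the hepatocyte promoter TBG was injected with it. The protective drug nitisinone was given until the injection and then stopped, so that hepatocytes with Fah could regrow. After 4 weeks, 400 mg of liver was lysed and the GFP-tagged ribosomes were captured by anti-GFP, which favours RNA in translation in cells with the plasmid. The labels give no age or sex, and the host liver also keeps cells that took up no plasmid.

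DNA replication begins when the origin recognition complex, with CDC6 and CDT1, loads the ring-shaped MCM helicase onto DNA, a step that geminin blocks once DNA synthesis has begun. MCM10, CDC45 and the GINS complex turn the loaded ring into a moving helicase, primase and the DNA polymerases copy both strands, and the sliding clamp PCNA holds the polymerases in place. Hepatocytes of a healthy adult liver rarely divide, and their replication genes are switched on when they regenerate, largely by E2F transcription factors. Levels are in TPM, which correct for transcript length and sum to 1000000 in each library, so the number of reads behind a value is unknown. In such bulk RNA, fewer cells of a type and less RNA per cell cannot be told apart.

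The targeted gene was measured first. Neurl1b, which encodes a ubiquitin ligase for Notch ligands, had 0.295, 0.351 and 0.306 TPM in the Neurl1b CRISPRi mice, against 1.22, 0.897 and 0.688 TPM in the non-targeting mice. The groups did not overlap (exact two-sided permutation p = 0.1, the smallest value that 3 against 3 can give).

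Promoters are shown first because the replication genes are known as E2F targets, and these 4 genes show the spread of what their promoters hold. The sequences are from RefSeq (GRCm38.p6), which held a promoter for 41 of the 49 genes, taken from 250 bases before to 50 bases after the first listed start. Capitals mark the E2F words TTTGGCGC, TTTCCCGC, TTTGCCGC and TTTCGCGC and the CCAAT box, on either strand. Mcm6 (chr1:128359656-128359955, minus strand) and Cdt1 (chr8:122567765-122568064, plus strand) hold E2F words. Of these words, Mcm10 (chr2:5012742-5013041, minus strand) holds CCAAT boxes alone, and Tk1 (chr11:117825965-117826264, minus strand) holds none. The Mcm10 stretch breaks off just before the last letter of a possible TTTGGCGC, so whether that word is there cannot be told.
Mcm6: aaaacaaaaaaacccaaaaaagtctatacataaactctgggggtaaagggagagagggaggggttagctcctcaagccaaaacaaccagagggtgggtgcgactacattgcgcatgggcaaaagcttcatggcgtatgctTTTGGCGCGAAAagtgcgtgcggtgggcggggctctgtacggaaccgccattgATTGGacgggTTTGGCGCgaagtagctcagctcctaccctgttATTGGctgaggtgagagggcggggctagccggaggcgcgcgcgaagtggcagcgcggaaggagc
Cdt1: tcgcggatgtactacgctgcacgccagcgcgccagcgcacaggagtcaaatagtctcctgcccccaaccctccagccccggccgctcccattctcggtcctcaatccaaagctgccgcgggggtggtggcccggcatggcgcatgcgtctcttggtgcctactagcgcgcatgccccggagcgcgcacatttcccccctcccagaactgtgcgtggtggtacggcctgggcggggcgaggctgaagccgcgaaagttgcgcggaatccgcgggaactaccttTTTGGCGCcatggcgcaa
Mcm10: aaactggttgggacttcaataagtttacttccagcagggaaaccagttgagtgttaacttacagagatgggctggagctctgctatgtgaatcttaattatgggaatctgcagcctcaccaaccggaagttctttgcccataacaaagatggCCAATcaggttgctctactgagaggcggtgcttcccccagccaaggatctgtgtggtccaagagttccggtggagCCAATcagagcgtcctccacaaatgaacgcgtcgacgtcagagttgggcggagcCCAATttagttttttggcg
Tk1: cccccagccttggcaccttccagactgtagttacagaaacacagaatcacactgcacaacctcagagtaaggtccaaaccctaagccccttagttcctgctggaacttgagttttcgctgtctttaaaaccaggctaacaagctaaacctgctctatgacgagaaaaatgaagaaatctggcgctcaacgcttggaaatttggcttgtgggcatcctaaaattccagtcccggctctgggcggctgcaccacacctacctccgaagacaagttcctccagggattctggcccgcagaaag

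Mcm6 had 3 E2F words, of which 2 overlapped on opposite strands, and 2 CCAAT boxes. Cdt1 had 1 E2F word, at bases 32 to 39 after the start, and Mcm10 had 3 CCAAT boxes. Of the 41 promoters, 14 (34.1%) held an E2F word, against 626 of all 27025 promoters (2.32%). By step they were 4 of 5 MCM genes, 4 of 7 polymerase and primase genes, both licensing factors with a promoter (Cdc6 and Cdt1), 2 of 6 origin recognition genes, 1 of 3 helicase activation genes and 1 of 5 clamp genes. The CCAAT box was in 25 of 41 (61.0%, against 37.9% of all promoters) and the GC box GGGCGG in 30 of 41 (73.2%, against 35.9%). The cell cycle homology region (TTTGAA or TTCGAA), an element of mitotic gene promoters, was in 7 of 41 (17.1%, against 19.4% of all promoters). A match is only a match of letters, and a promoter without one may still bind the factor.

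As a whole, the replication genes differed between Neurl1b CRISPRi and non-targeting mice about as much as the average gene did. Of the 49, 44 had a mean of at least 1 TPM and were tested, and none passed an adjusted p of 0.05 in limma, where 2 of all 10598 genes did (0.0189%). Their adjusted p-values lay between 0.323 and 1. At an unadjusted p below 0.05, 2 were higher in CRISPRi (Cdt1 and Chaf1a, 4.55%, against 10.1% of all genes) and 2 were lower (Mcm10 and Tk1, 4.55%, against 3.19% of all genes). Their median log2 fold change of TPM + 1 was 0.23, against 0.18 over all genes tested, and 32 of 44 lay above 0 (72.7%, against 74.0% of all genes). With libraries scaled by median of ratios the median of all genes became -0.02 and that of the replication genes 0.04, so each fold change below is best read against 0.18. In no replication gene was every CRISPRi mouse above every non-targeting mouse, as in 12.5% of all genes, and in 2 genes, Mcm10 and Tk1, every CRISPRi mouse was below (4.57% of all genes).

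**Figure D1:**
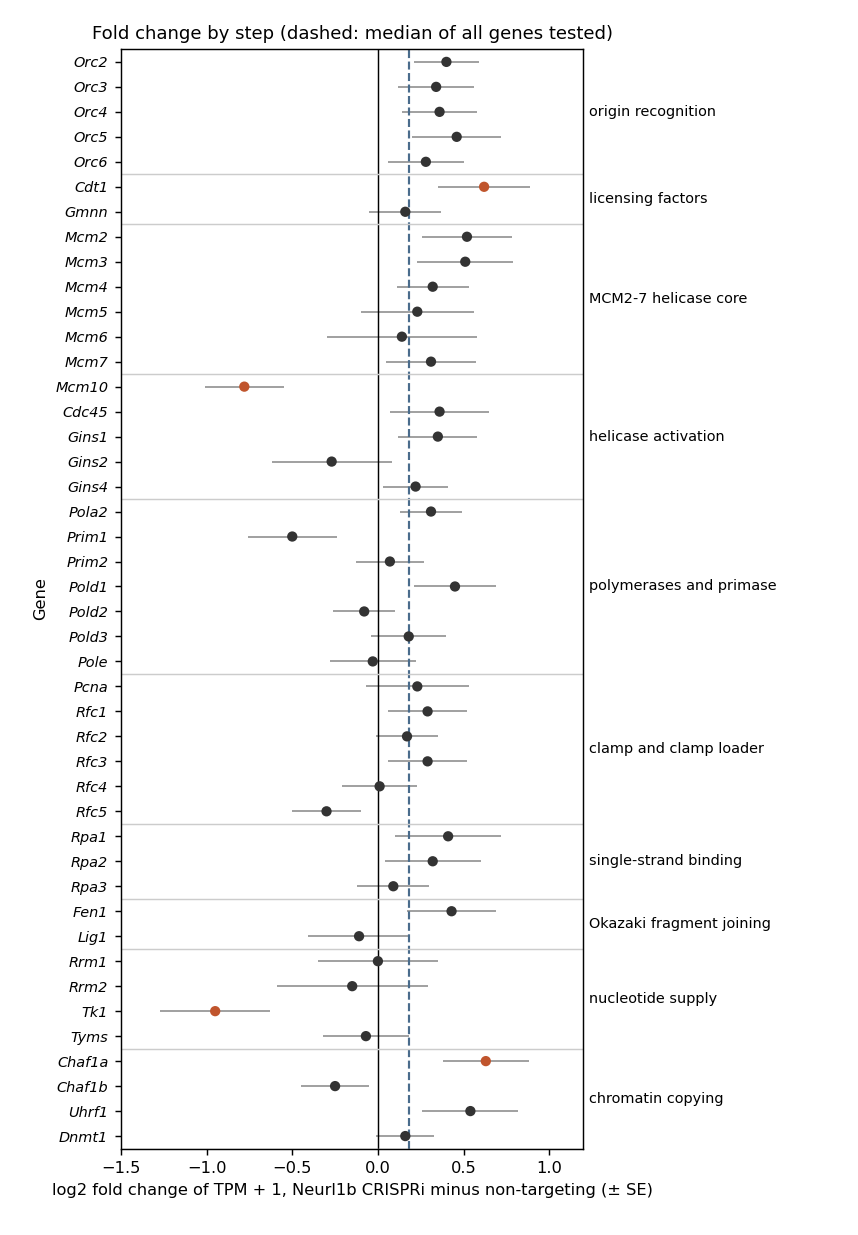
Log2 fold change of TPM + 1, Neurl1b CRISPRi minus non-targeting, for the 44 replication genes tested, with bars of 1 SE and the genes grouped by step; the dashed line is the median of all genes tested (0.18). The 4 genes with an unadjusted p below 0.05 are in orange: Cdt1 and Chaf1a lie to the right, Mcm10 and Tk1 to the left, and all 5 tested origin recognition genes and all 6 MCM genes lie above 0. Of all genes tested, 74.0% lie above 0.

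The origin recognition complex marks the sites where replication can start. All 5 tested subunits had log2 fold changes above the median of all genes, between 0.28 and 0.46, and none passed the test. Orc2 had 3.49, 3.19 and 2.82 TPM in CRISPRi mice, against 2.90, 1.74 and 1.90 TPM in non-targeting mice (log2 fold change 0.40, SE 0.19). Orc5 had 7.07, 6.67 and 7.32 TPM in CRISPRi mice, against 7.73, 3.87 and 3.60 TPM in non-targeting mice (0.46, SE 0.26). In both genes non-targeting mouse 1 lay within or above the CRISPRi mice and the other non-targeting mice lay below them all. Orc1, the subunit that is made and destroyed with each cell cycle in cultured human cells, was the lowest of all 49 genes, with 0.097 to 0.223 TPM in CRISPRi mice and 0.025 to 0.155 TPM in non-targeting mice.

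Both tested licensing factors, Cdt1 and its inhibitor geminin, had log2 fold changes above 0, as did 74.0% of all genes, and neither passed the test. That of geminin was below the median of all genes. With median-of-ratios scaling Cdt1 had 0.44 and geminin -0.07. Cdt1, which brings the helicase to the origin, had 5.41, 3.94 and 5.91 TPM in CRISPRi mice, against 4.70, 2.06 and 2.46 TPM in non-targeting mice. Group means were 5.09 ± 1.03 and 3.08 ± 1.43 (SD, n = 3 each), a ratio of 1.65, but non-targeting mouse 1 lay inside the CRISPRi range (log2 fold change 0.62, SE 0.27, limma unadjusted p = 0.0464, adjusted p = 0.371). Gmnn, which encodes geminin, had 25.6, 32.3 and 33.9 TPM in CRISPRi mice, against 32.9, 21.4 and 27.9 TPM in non-targeting mice (0.16, SE 0.21). The groups overlapped widely in Gmnn, whose level per length was above that of Cdt1 in every library. Cdc6, an ATPase that acts with CDT1, was below the filter, with 0.365, 0.774 and 1.85 TPM in CRISPRi mice and 0.664, 0.175 and 0.363 TPM in non-targeting mice.

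The 6 MCM subunits form the helicase ring, and all 6 had log2 fold changes above 0, between 0.14 and 0.52, with none past the test. Of all genes tested 74.0% lay above 0, and 5 of the 6 lay above their median of 0.18. With median-of-ratios scaling the 6 lay between -0.05 (Mcm6) and 0.34 (Mcm2). Mcm2 had 4.08, 4.89 and 6.43 TPM in CRISPRi mice, against 5.07, 2.64 and 2.38 TPM in non-targeting mice (0.52, SE 0.26). Mcm3 had 7.14, 9.34 and 13.1 TPM in CRISPRi mice, against 8.75, 4.40 and 6.76 TPM in non-targeting mice (0.51, SE 0.28). Non-targeting mouse 1 fell between the CRISPRi mice in both. Of the TPM of Mcm3, 23.5% lay on its coding transcripts, on which its log2 fold change was 0.52. The widest spread was that of Mcm6, with 4.90, 5.54 and 9.31 TPM in CRISPRi mice and 13.1, 3.04 and 4.27 TPM in non-targeting mice, so that the highest and the lowest value were both in non-targeting mice. Summed over the ring, the level was 37.6 ± 9.49 TPM in CRISPRi mice and 29.8 ± 13.6 TPM in non-targeting mice (SD, n = 3 each).

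Over all transcripts, 3 of the 5 tested genes that turn the ring into a moving helicase had log2 fold changes above 0. Those of Mcm10 and Gins2 lay below 0. Mcm10, which encodes the factor that starts unwinding, had 4.26, 6.21 and 4.89 TPM in CRISPRi mice, against 7.38, 12.6 and 8.97 TPM in non-targeting mice. Group means were 5.12 ± 0.997 and 9.65 ± 2.67 TPM (SD, n = 3 each), and the groups did not overlap. Its log2 fold change was -0.78 (SE 0.23, limma unadjusted p = 0.00854, adjusted p = 0.323), the smallest unadjusted p of the 44 genes. Cdc45, the helicase cofactor, had a log2 fold change of 0.36 (SE 0.29), and the GINS subunit genes Gins1, Gins2 and Gins4 had 0.35, -0.27 and 0.22, with overlapping groups in each. On protein-coding transcripts alone Gins1 had 0.02 and Gins2 had 0.03, while Cdc45 and Gins4 kept their values. Gins1 had 9.45, 8.77 and 11.2 TPM in CRISPRi mice, against 10.7, 6.50 and 5.90 TPM in non-targeting mice, and Gins3 was below the filter.

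The polymerases and primase, which begin and extend the new strands, showed a median of 0.07 (log2 fold change) over 7 tested genes, 3 of them below 0. Prim1, the catalytic primase subunit, had 2.32, 3.16 and 4.36 TPM in CRISPRi mice, against 6.23, 3.37 and 5.66 TPM in non-targeting mice (-0.50, SE 0.26, limma unadjusted p = 0.0869). Pold1, the catalytic subunit of polymerase delta, had 1.62, 3.21 and 3.13 TPM in CRISPRi mice, against 2.13, 1.29 and 1.45 TPM in non-targeting mice (0.45, SE 0.24). The groups overlapped in both, in Prim1 only through CRISPRi mouse 3. Pole, the catalytic subunit of polymerase epsilon, and Pold2, an accessory subunit of polymerase delta, had log2 fold changes of -0.03 and -0.08. On protein-coding transcripts alone the median was 0.15 over 6 tested genes, 2 of them below 0. Pold2 then had 0.45 and Pole -0.08, and Pold1 was below the filter. Pola1 and Pole2 were below the filter.

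The clamp and its loader had the highest summed TPM of the 10 steps. Rfc2, a subunit of the clamp loader, and Pcna, the clamp itself, had the highest TPM of the 49 genes over all transcripts. Only 4.27% of the TPM of Rfc2 was on its coding transcript, which had a mean of 3.08 TPM and a log2 fold change of 0.01. Pcna had 50.8, 53.1 and 70.9 TPM in CRISPRi mice, against 77.8, 32.1 and 47.1 TPM in non-targeting mice (0.23, SE 0.30). Rfc2 had 70.9, 75.8 and 81.5 TPM in CRISPRi mice, against 79.8, 55.5 and 69.3 TPM in non-targeting mice (0.17, SE 0.18). In both, the non-targeting mice spanned the CRISPRi range or nearly so. Among the other loader subunits, Rfc1 had 3.16, 4.79 and 3.88 TPM in CRISPRi mice, against 4.26, 2.38 and 2.62 TPM in non-targeting mice (0.29, SE 0.23). Rfc5 had 4.86, 6.89 and 7.70 TPM in CRISPRi mice, against 8.26, 8.70 and 7.36 TPM in non-targeting mice (-0.30, SE 0.20). Rfc5 was the only loader gene below 0, but Rfc4 was at 0.01 (SE 0.22). With median-of-ratios scaling Rfc2 (-0.07) and Rfc4 (-0.20) were below 0 too, and Rfc1 (0.11) and Rfc3 (0.07) above.

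The proteins that coat single strands and join Okazaki fragments, the short pieces of the lagging strand, showed no call. Rpa1, the large subunit of the single-strand binding complex, had 15.9, 16.7 and 19.8 TPM in CRISPRi mice, against 21.7, 7.95 and 11.9 TPM in non-targeting mice (0.41, SE 0.31). Rpa2 had 9.54, 12.6 and 15.1 TPM in CRISPRi mice, against 14.9, 7.19 and 8.10 TPM in non-targeting mice (0.32, SE 0.28). Fen1, the nuclease that trims the fragments, had 7.19, 8.07 and 9.22 TPM in CRISPRi mice, against 9.09, 4.11 and 5.08 TPM in non-targeting mice (0.43, SE 0.26). In all 3 genes non-targeting mouse 1 lay within or above the CRISPRi range and the other non-targeting mice lay below every CRISPRi mouse. Lig1, the ligase that seals the fragments, had 3.05, 4.37 and 6.84 TPM in CRISPRi mice, against 6.40, 3.31 and 5.73 TPM in non-targeting mice (-0.11, SE 0.30).

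Nucleotide supply was the 1 step with no tested gene above 0. Without non-targeting mouse 1, Rrm1, Rrm2 and Tyms had log2 fold changes of 0.40, 0.37 and 0.19, and Tk1 had -0.93. The median of all genes was then 0.29. With median-of-ratios scaling too, Rrm1, Rrm2, Tyms and Tk1 had 0.05, 0.03, -0.17 and -1.26. With that scaling and all 6 mice they had -0.22, -0.37, -0.30 and -1.17. Tk1, the thymidine kinase of the salvage pathway, had 3.75, 6.53 and 11.4 TPM in CRISPRi mice, against 14.3, 14.7 and 12.3 TPM in non-targeting mice. Group means were 7.21 ± 3.85 and 13.8 ± 1.28 TPM (SD, n = 3 each), and the groups did not overlap, although CRISPRi mouse 3 came close to non-targeting mouse 3. Its log2 fold change was -0.95 (SE 0.32, limma unadjusted p = 0.0164, adjusted p = 0.344), the lowest of the 44 genes. Rrm2, the regulated subunit of ribonucleotide reductase, had 9.59, 14.3 and 19.5 TPM in CRISPRi mice, against 33.1, 8.81 and 12.5 TPM in non-targeting mice (-0.15, SE 0.44). Rrm2 was highest in non-targeting mouse 1. Rrm1, the other reductase subunit, and Tyms, thymidylate synthase, had log2 fold changes of 0.00 and -0.07.

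The chromatin copying genes included Chaf1a, with the highest log2 fold change of the 44 tested genes on the sums over all transcripts, closely followed by Cdt1. On protein-coding transcripts alone the order was reversed, with 0.67 for Cdt1 and 0.62 for Chaf1a. Chaf1a, the large subunit of the histone chaperone that follows the clamp, had 2.01, 2.21 and 3.66 TPM in CRISPRi mice, against 2.09, 1.02 and 0.938 TPM in non-targeting mice. Group means were 2.63 ± 0.896 and 1.35 ± 0.640 TPM (SD, n = 3 each), a ratio of 1.95, with non-targeting mouse 1 inside the CRISPRi range (log2 fold change 0.63, SE 0.25, limma unadjusted p = 0.0342, adjusted p = 0.352). Its partner subunit Chaf1b had a log2 fold change of -0.25 (SE 0.20). Uhrf1, which reads hemimethylated DNA behind the fork, had 1.40, 2.06 and 3.36 TPM in CRISPRi mice, against 2.05, 0.764 and 0.945 TPM in non-targeting mice (0.54, SE 0.28). Dnmt1, the methyltransferase it recruits, had a log2 fold change of 0.16. The 29 genes not chosen by their p were 24 tested ones, with log2 fold changes of -0.27 to 0.36 and unadjusted p of 0.128 to 0.999, and the 5 below the filter.

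The replication genes moved together from mouse to mouse within each group. CRISPRi mouse 3 was the highest of the CRISPRi mice in 38 of 49 genes, and mouse 1 the lowest in 38, while over all genes tested these orders held in 29.8% and 30.4%. Non-targeting mouse 1 was above both other non-targeting mice in 43 of 49, and in 67.9% of all genes tested. The 49 genes summed to 428, 480 and 572 TPM in CRISPRi mice, against 607, 344 and 421 TPM in non-targeting mice, so the spread among non-targeting mice covered all the CRISPRi mice. Non-targeting mice 2 and 3 were both below every CRISPRi mouse in 31 of the 49, and in 52.4% of all genes tested. The genes share the same 6 libraries, so these counts are not independent observations.

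**Figure D2:**
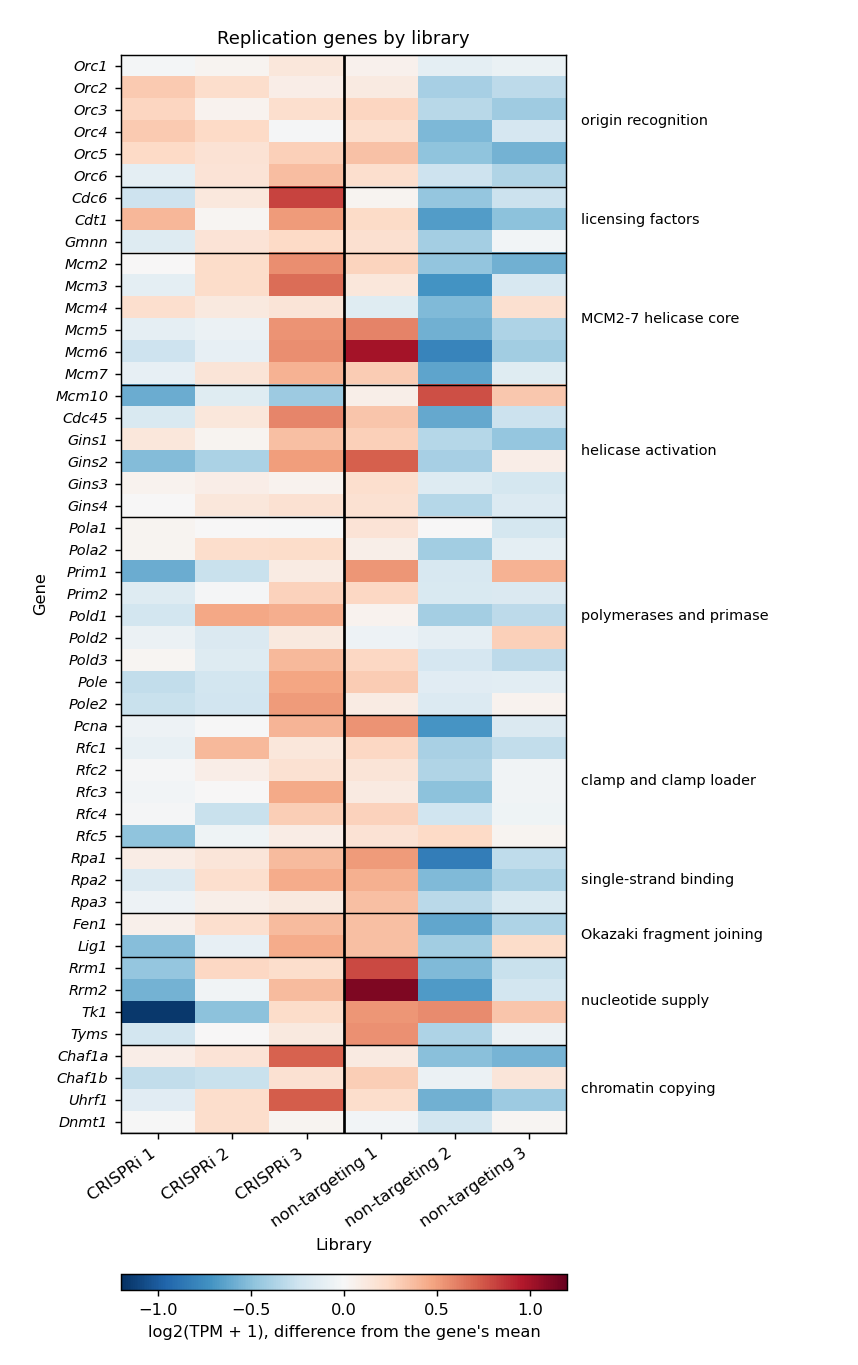
Down the page are the 49 replication genes, grouped by step, and across it the libraries, with the 3 Neurl1b CRISPRi mice left of the 3 non-targeting mice; colour is log2(TPM + 1) minus the gene's mean over the 6 libraries. CRISPRi mouse 3 and non-targeting mouse 1 are red in most genes and non-targeting mouse 2 is blue in most; in Mcm10 and Tk1 non-targeting mouse 2 is red and CRISPRi mice 1 and 2 are blue.

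The number of replication genes called depended on non-targeting mouse 1 and on how the libraries were scaled. Median-of-ratios factors were 0.834 and 0.850 for non-targeting mice 2 and 3, and 1.05 to 1.11 for the other mice. Without non-targeting mouse 1, 10 of 44 passed in limma, against 25.3% of all genes. Of these, 9 rose (20.5%, against 23.1% of all genes) and 1 fell (2.27%, against 2.24%). There were 23 higher (39.7% of all genes) and 1 lower (4.52%) at an unadjusted p below 0.05. Those that rose were Orc2, Orc3 and Orc5 (log2 fold changes 0.56, 0.55 and 0.76), Cdt1 (0.89), Mcm2 (0.79), Gins1 (0.58), Rpa1 (0.77), Fen1 (0.71) and Chaf1a (0.84), with adjusted p-values of 0.0179 to 0.0402. Mcm10 fell by 0.94 on the log2 scale (SE 0.20, limma adjusted p = 0.0282). The median of the 44 genes was then 0.42, against 0.29 over all genes. When the libraries were scaled by median of ratios too, only Mcm10 passed (-1.27, SE 0.21, limma adjusted p = 0.0408), where 5.41% of all genes did. By unadjusted p below 0.05, 4 were then higher (13.0% of all genes) and 4 lower (17.6%). With that scaling and all 6 mice, 0 were higher (5.6% of all genes) and 5 lower (7.56%), namely Mcm10, Prim1, Rfc5, Tk1 and Chaf1b. Array weights, which ranged from 0.164 for non-targeting mouse 1 to 5.60 for CRISPRi mouse 2, called 5 of 44 (20.9% of all genes), with 17 higher (37.1%) and 2 lower (5.04%) at an unadjusted p below 0.05. Non-targeting mouse 1 had the smallest share of mitochondrially encoded RNA, 0.075%, against 0.140% to 0.216% in the CRISPRi mice and 0.191% and 0.203% in the other non-targeting mice. The part of that difference in these results was not tested.

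Part of the RNA assigned to these genes sat on transcripts outside the protein-coding class. By transcript class in GENCODE vM21, protein-coding transcripts carried 67.8%, 65.7% and 67.3% of the summed TPM of the 49 genes in CRISPRi mice, against 69.4%, 60.1% and 56.2% in the non-targeting group. Retained-intron transcripts carried 19.3%, 21.6% and 21.2% in CRISPRi mice, against 18.6%, 28.4% and 33.0% in the non-targeting group. Non-targeting mouse 1 thus resembled the CRISPRi mice, and the other non-targeting mice had more retained-intron signal. Over all transcripts the retained-intron share was 4.60% to 5.05% in CRISPRi mice, against 4.61%, 6.48% and 5.84% in the non-targeting group. Rfc2 alone made up a large part of it, since 4.27% of its TPM was on its coding transcript. Without Rfc2 the retained-intron share was 7.70%, 10.7% and 11.7% in CRISPRi mice, against 9.62%, 18.1% and 23.3% in the non-targeting group. Of the 44 tested genes, 10 had under 50% of their TPM on coding transcripts (22.7%, against 18.1% of all genes tested).

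**Figure D3:**
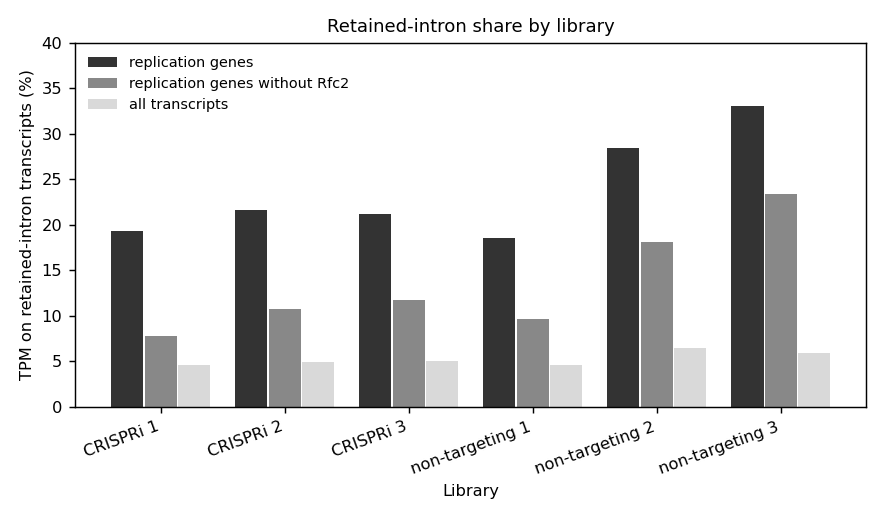
Percent of TPM on retained-intron transcripts in each library, the Neurl1b CRISPRi mice left of the non-targeting mice, for the 49 replication genes, the same without Rfc2, and all transcripts. Non-targeting mice 2 and 3 have the highest bars, 28.4% and 33.0% for the replication genes, and non-targeting mouse 1 (18.6%) is close to the CRISPRi mice (19.3% to 21.6%).

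Most of the TPM of Mcm10 lay on such a transcript. Its retained-intron transcript ENSMUST00000125349.8, 1343 bases long, had 3.90, 5.62 and 4.36 TPM in CRISPRi mice, against 6.23, 11.2 and 8.08 TPM in non-targeting mice. The full coding transcript ENSMUST00000102985.8, 4867 bases long, had 0.271, 0.558 and 0.431 TPM in CRISPRi mice, against 0.573, 0.712 and 0.696 TPM in non-targeting mice. Both were lower in every CRISPRi mouse than in any non-targeting mouse, but the coding transcript was under the filter of 1 TPM. The short transcript shares bases 2544 to 3857 of the coding one and adds 29 bases of intron at its start, so that 97.8% of its letters also belong to the coding transcript. Reads in the shared stretch were divided between the transcripts by estimation.

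Tk1 showed a like division. Its coding transcript ENSMUST00000026661.4 had 2.72, 3.86 and 7.43 TPM in CRISPRi mice, against 10.3, 7.55 and 6.25 TPM in non-targeting mice, and here the groups overlapped. Its retained-intron transcript ENSMUST00000141939.2 had 0.739, 2.31 and 3.58 TPM in CRISPRi mice, against 3.72, 7.07 and 5.84 TPM in non-targeting mice, without overlap. On protein-coding transcripts alone, a setting chosen after the data were seen, Tk1 had a log2 fold change of -0.73 (limma unadjusted p = 0.0487, adjusted p = 0.371). The annotated gene Gm20708 overlaps both Tk1 transcripts and Afmid the coding one, and the library kit is not stated to mark strand, so reads of overlapping genes cannot be told apart there. Annotated genes overlap other replication genes too, among them Cdt1 (Gm20388), Chaf1a (Ubxn6), Fen1 (Gm10143 and Tmem258) and Orc2 (Nif3l1).

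The stretches that set the short transcripts apart are shown because they decide where reads are counted. In Mcm10, Tk1 and Rfc2 the main transcript outside the coding class begins within an intron and runs into the next coding exon. Lower case marks the intron bases and capitals the first 30 bases of that exon, from GENCODE vM21 (GRCm38). The stretches are chr2:4995836-4995894 (Mcm10, minus strand), chr11:117816537-117816654 (Tk1, minus strand) and chr5:134594119-134594238 (Rfc2, plus strand).
Mcm10: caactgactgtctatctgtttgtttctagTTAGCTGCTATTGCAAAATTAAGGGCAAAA
Tk1: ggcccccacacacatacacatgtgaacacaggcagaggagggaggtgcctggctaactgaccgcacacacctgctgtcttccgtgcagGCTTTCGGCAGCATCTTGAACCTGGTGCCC
Rfc2: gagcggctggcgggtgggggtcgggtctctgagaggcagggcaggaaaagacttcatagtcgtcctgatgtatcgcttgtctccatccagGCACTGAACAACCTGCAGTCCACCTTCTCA

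Each intron stretch ends in ag, the letters that normally close an intron, and holds 29 bases in Mcm10, 88 in Tk1 and 90 in Rfc2. The Rfc2 transcript, ENSMUST00000201464.2, had 41.2, 46.9 and 50.5 TPM in CRISPRi mice, against 47.4, 37.9 and 50.6 TPM in non-targeting mice, and so did not differ as those of Mcm10 and Tk1 did. Of the 15 replication genes with at least 1 TPM on retained-intron transcripts, Mcm10 and Tk1 were the 2 with every CRISPRi mouse below every non-targeting mouse (13.3%, against 6.09% of all such genes), and none had every CRISPRi mouse above (7.85%).

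Pcna and Pold2 were 2 of the 4 genes, with Mcm10 and Tk1, whose retained-intron sum was higher in non-targeting mice 2 and 3 than in every CRISPRi mouse (19.9% of all such genes). The retained-intron transcript of Pcna, ENSMUST00000140338.2, was listed at 0 in all CRISPRi mice and in non-targeting mouse 1, and had 4.10 and 15.0 TPM in non-targeting mice 2 and 3. The coding transcript of Pcna had 50.8, 53.1 and 70.6 TPM in CRISPRi mice, against 77.8, 27.8 and 31.9 TPM in non-targeting mice. The retained-intron transcript of Pold2 had 3.16, 4.82 and 6.34 TPM in CRISPRi mice, against 4.13, 7.40 and 14.0 TPM in non-targeting mice. Its coding transcript had 11.6, 8.88 and 10.6 TPM in CRISPRi mice, against 10.8, 6.94 and 5.08 TPM in non-targeting mice. In both genes non-targeting mice 2 and 3 had the lowest coding levels of the 6 mice and the highest retained-intron levels.

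On protein-coding transcripts alone the median log2 fold change of 41 tested replication genes was 0.25, against 0.20 over 9533 genes, and 34 of 41 lay above 0 (82.9%, against 77.1% of all genes). None passed in limma, where 0.0105% of all genes did. At an unadjusted p below 0.05, Chaf1a was higher (2.44%, against 10.7% of all genes) and Tk1 lower (2.44%, against 2.74%). None of the 41 had groups apart, against 12.7% of all genes with every CRISPRi mouse higher and 4.01% with every one lower. Mcm10 was lower in every CRISPRi mouse on coding transcripts too, but was below the filter and so not among the 41. Without non-targeting mouse 1, 16 of 41 passed, against 34.2% of all genes: 16 rose (39.0%, against 31.8% of all genes) and none fell (2.34%). With unadjusted p below 0.05 there were 25 higher (45.0% of all genes) and none lower (4.04%). With median-of-ratios scaling as an added step, none of the 41 passed, where 9.38% of all genes did. Among the 16 without that scaling were Pcna (0.93, SE 0.18, limma adjusted p = 0.0181), Mcm7 (0.93, SE 0.17) and Orc6 (0.67, SE 0.13), which had not passed on the sums over all transcripts. Orc3 (0.26, limma adjusted p = 0.113) and Gins1 (0.29, limma adjusted p = 0.289) had passed on those sums and did not pass on coding transcripts.

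**Figure D4:**
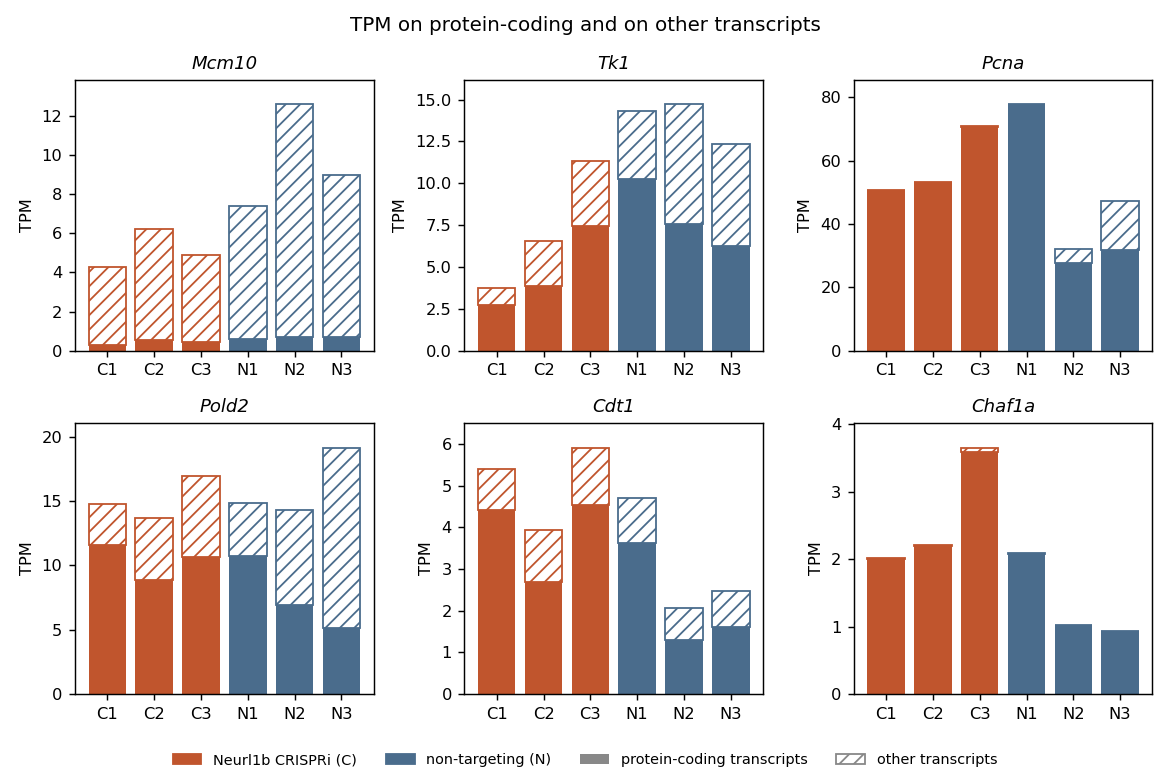
TPM of 6 replication genes in each library (C1 to C3 are Neurl1b CRISPRi mice, N1 to N3 non-targeting mice), with filled bars for protein-coding transcripts and hatched bars for all others. The Mcm10 bars are nearly all hatched, the hatched part of Pcna appears in N2 and N3, and the filled bars of Cdt1 and Chaf1a are lowest in N2 and N3.

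Genes of mitosis, the stage that follows S phase, give a scale for the replication genes that does not depend on the other RNA of a library. Their list was chosen with earlier results of these data known, so the counts for it are a description and not independent support. All 19 tested of 24 mitosis genes had log2 fold changes below 0, with a median of -0.82. None passed in limma, and 13 were lower at an unadjusted p below 0.05 (3.19% of all genes). In 13 of the 19, every CRISPRi mouse was below every non-targeting mouse (4.57% of all genes). Birc5, which encodes the mitotic protein survivin, had 8.91, 14.6 and 18.4 TPM in CRISPRi mice, against 34.3, 37.9 and 37.2 TPM in non-targeting mice. Hmmr, a spindle gene, had 1.51, 1.85 and 1.82 TPM in CRISPRi mice, against 5.33, 3.07 and 4.07 TPM in non-targeting mice. Knstrn, another spindle gene, had 5.06, 11.6 and 12.2 TPM in CRISPRi mice, against 31.4, 29.3 and 24.7 TPM in non-targeting mice. These genes, with Racgap1 of cell division (1.94, 2.45 and 3.15 TPM in CRISPRi mice, against 8.34, 5.13 and 4.88 TPM in non-targeting mice), showed a gap between the groups that the summed replication genes did not.

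The summed TPM of the mitosis genes was 0.153, 0.223 and 0.245 of that of the replication genes in CRISPRi mice, against 0.492, 0.557 and 0.449 in the non-targeting group. On protein-coding transcripts alone the ratio was 0.210, 0.310 and 0.333 in CRISPRi mice, against 0.659, 0.841 and 0.724 in the non-targeting group. By this ratio non-targeting mouse 1 lay with the other non-targeting mice. Relative to the mitosis sum, 41 of 44 replication genes were higher in every CRISPRi mouse than in any non-targeting mouse, and none was lower (0.0661% of all genes). The first held for 84.0% of all genes tested, so it is not particular to the replication genes. Of the 20 mitosis genes with a promoter in RefSeq, none held an E2F word and 15 held the cell cycle homology region, against 14 and 7 of the 41 replication genes.

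**Figure D5:**
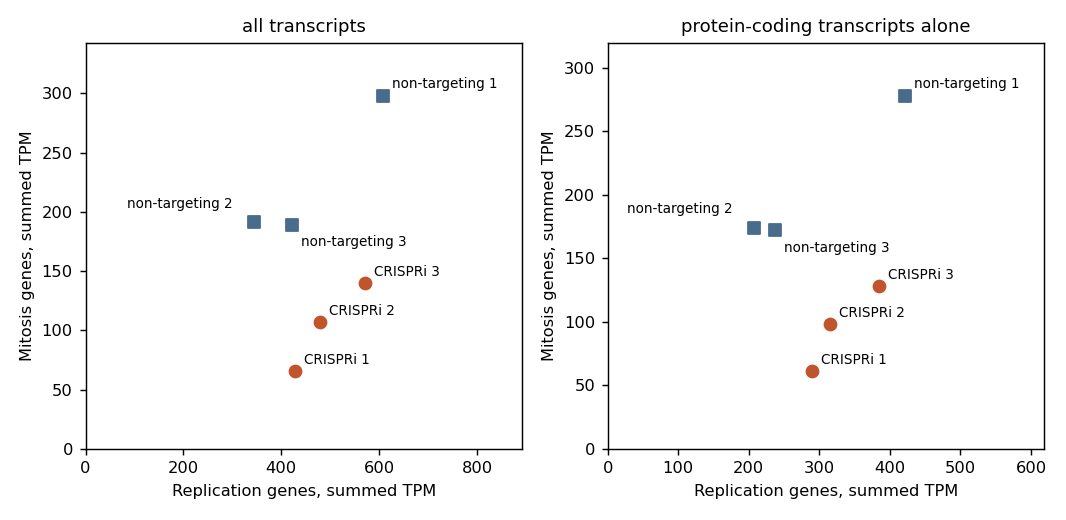
Summed TPM of 24 mitosis genes (vertical) against that of the 49 replication genes (horizontal) in each library, over all transcripts (left) and protein-coding transcripts alone (right). The Neurl1b CRISPRi mice (circles) and the non-targeting mice (squares) overlap along the horizontal axis and are apart along the vertical one, with at most 140 TPM in CRISPRi mice and at least 189 TPM in non-targeting mice on the left.

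The replication genes with an E2F word in the promoter showed a median of 0.31 (log2 fold change), and all 9 tested lay above 0, between 0.14 and 0.62. Of all genes tested, 74.0% lay above 0, with a median of 0.18. With median-of-ratios scaling the 9 lay between -0.05 (Mcm6) and 0.44 (Cdt1), all but Mcm6 above 0. Those without one had a median of 0.23, and 17 of 27 lay above 0, between -0.95 and 0.63. These are descriptions of small groups and carry no test. Of the 4 genes at an unadjusted p below 0.05, Cdt1 alone had the word within the stretch taken. That of Mcm10 breaks off inside a possible one.

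Other genes of the same processes showed no shared direction. Over 6 lists of 74 further genes, 58 were tested and none passed in limma. Of these, 34 lay above 0 and 24 below 0, where 74.0% of all genes lay above 0. Their median log2 fold change was 0.11, against 0.18 over all genes. At an unadjusted p below 0.05 there were 3 higher (Topbp1, Wee1 and Ddb1) and 2 lower (Chtf18 and E2f8), against 10.1% and 3.19% of all genes. Wee1, the kinase that holds cells before mitosis, had 5.51, 5.19 and 6.44 TPM in CRISPRi mice, against 4.20, 2.61 and 2.45 TPM in non-targeting mice (log2 fold change 0.74, SE 0.21, limma adjusted p = 0.323). E2f8, an E2F repressor, had 0.476, 0.844 and 0.667 TPM in CRISPRi mice, against 1.30, 1.28 and 1.66 TPM in non-targeting mice (-0.54, SE 0.17, limma adjusted p = 0.330). In both genes the groups did not overlap (12.5% of all genes had every CRISPRi mouse higher and 4.57% every one lower). Mcmbp and Pole3 were also apart and higher, and Dctpp1, E2f4 and Rad9a apart and lower. Topbp1, which helps to load CDC45, had 6.25, 4.93 and 11.1 TPM in CRISPRi mice, against 6.10, 3.02 and 2.77 TPM in non-targeting mice (0.76, SE 0.33). Ddb1, part of the ligase that destroys CDT1, had 67.9, 71.7 and 75.3 TPM in CRISPRi mice, against 69.8, 39.3 and 29.8 TPM in non-targeting mice (0.71, SE 0.28). In both, non-targeting mouse 1 lay inside the CRISPRi range and the other non-targeting mice below it. Chtf18, part of an alternative clamp loader, had 1.16, 1.67 and 1.02 TPM in CRISPRi mice, against 3.19, 1.58 and 3.03 TPM in non-targeting mice (-0.63, SE 0.23), with an overlap through non-targeting mouse 2.

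Markers of other liver cells were also compared. The summed TPM of 8 macrophage markers was 63.5 to 96.1 in CRISPRi mice and 43.9 to 73.7 in non-targeting mice, with overlap. All 6 tested ones had log2 fold changes above 0, as did 74.0% of all genes. In 3 of them every CRISPRi mouse was above every non-targeting mouse (12.5% of all genes). These were Csf1r (0.85), Cd68 (0.69) and Vsig4 (0.67), with limma adjusted p-values of 0.31 to 0.353. The 8 stellate cell markers summed to 28.7 to 41.7 TPM in CRISPRi mice and 11.6 to 25.8 TPM in non-targeting mice, without overlap. Of 5 tested ones, 3 had every CRISPRi mouse higher (Dcn, Lrat and Rgs5), against 12.5% of all genes. The 8 endothelial markers summed to 22.9 to 31.6 TPM in CRISPRi mice and 21.2 to 30.9 TPM in non-targeting mice. Of 4 tested ones, 3 lay above 0, with Stab2 apart and higher and Pecam1 apart and lower. The 6 biliary markers summed to 15.9 to 23.8 TPM in CRISPRi mice and 13.3 to 25.7 TPM in non-targeting mice. Of 3 tested ones, 1 lay above 0, with groups apart, and 2 lay below 0. The 8 lymphocyte markers summed to at most 2.30 TPM in CRISPRi mice and 2.61 TPM in non-targeting mice. The 7 red cell precursor markers, whose cells also divide, ranged from 497 to 1580 TPM in CRISPRi mice and from 952 to 3900 TPM in non-targeting mice, and were highest in non-targeting mouse 2. All 6 tested ones had log2 fold changes below 0, with a median of -0.72. Alas2, which starts heme synthesis in red cell precursors, had 3.34, 5.07 and 4.71 TPM in CRISPRi mice, against 6.36, 17.2 and 9.52 TPM in non-targeting mice (-1.07, SE 0.32, limma adjusted p = 0.326). It was the 1 of the 6 with every CRISPRi mouse lower, as in Mcm10 and Tk1 (4.57% of all genes). The 8 hepatocyte markers ranged from 23200 to 31000 TPM in CRISPRi mice and from 26300 to 56600 TPM in non-targeting mice, the highest of the marker lists, in libraries labelled hepatocytes. The part of other cells in the levels of the replication genes was not tested.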

How the data were processed

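The authors used kallisto and the build mm39, per the submitters' processing notes; its version and transcript set are not given in the sources used. The values the authors deposited are TPM for 117486 transcripts in 6 libraries (library totals near 1000000), so depth and counting error are unknown. Transcripts were summed by symbol; 21941 symbols were above 0. Genes with a mean of at least 1 TPM (10598) were compared with limma 3.58.1 under R 4.3.3, on the log2(TPM + 1) scale (trended empirical Bayes, two-sided, no covariate, Benjamini-Hochberg over all tested genes, threshold 0.05); fold changes on this scale understate those of low genes. Genes below the filter (Orc1, Cdc6, Gins3, Pola1 and Pole2) come from the same fit without it. Single genes were also compared by exact permutation. The fit was tested on simulated data.

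Transcript classes and exons came from GENCODE vM21 (GRCm38), matched by transcript ID (99.04% of transcripts), and promoters from RefSeq; no coordinates were converted. The replicates are separate mice per the labels, which do not say that equal numbers mark pairs, so no pairing was used. Members, lists, tests and alternatives were chosen with earlier results of these data known. Values per library are given for the 2 genes of each step with the smallest p, for every replication gene with an unadjusted p below 0.05 or groups apart, up to 4 genes of each other pathway list with an unadjusted p below 0.05, and the 4 mitosis genes with the smallest p; other genes named with values, such as Orc1, Cdc6, Mcm6, Pcna, Rfc2 and the cell type markers, were chosen after their values were seen. Named pseudogene copies of the members reached at most 0.262 TPM.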

Additional observations from a re-analysis of the deposited data

How the results depend on the processing

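Of the 20 genes chosen by p, 16 kept their direction under every limma setting tried, all but Gmnn, Gins1, Lig1 and Rrm2. The settings with protein-coding transcripts alone were chosen after seeing the data. Over all genes, 2 were called; the number was 1 with a mean of at least 5 TPM, 0 without a filter, with a pseudocount of 5 or with quantile normalization, and 2210 with array weights. Leaving out 1 mouse gave 0 to 2673 genes, and leaving out non-targeting mouse 1 under median-of-ratios scaling gave 570. There were on protein-coding transcripts 1 gene, 0 with that scaling, 3239 without non-targeting mouse 1 and 887 with both.

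Of the replication genes, 0 were called; 5 were with array weights (Orc2, Orc5, Mcm2 and Fen1 higher, Mcm10 lower), 0 to 10 with 1 mouse left out, 1 with non-targeting mouse 1 left out under median-of-ratios scaling, and on protein-coding transcripts 16 without non-targeting mouse 1 and 0 with scaling as well. At an unadjusted p below 0.05, 2 were higher (10.1% of all genes). The number was 17 with array weights (37.1% of all genes) and 0 with median-of-ratios scaling (5.6%). It was also 0 with a mean of at least 5 TPM, without a filter or with quantile normalization. With 1 mouse left out it was 0 to 23, the 23 without non-targeting mouse 1 (39.7% of all genes), and 4 without that mouse and with scaling (13.0%). On protein-coding transcripts it was 1 (10.7% of all genes), 0 with scaling, 25 without non-targeting mouse 1 (45.0%) and 6 with both. Counted in either direction, 1243 of all 9496 genes had such a p on coding transcripts with scaling, and 2999 of 9452 with both. Lower were 2 (3.19% of all genes). The number was 5 with median-of-ratios scaling (Mcm10, Prim1, Rfc5, Tk1 and Chaf1b, against 7.56% of all genes) or quantile normalization. It was 1 to 3 with 1 mouse left out, and 4 without non-targeting mouse 1 and with scaling (17.6%). On protein-coding transcripts 1 was lower (2.74% of all genes), 0 without non-targeting mouse 1 (4.04%), 3 with scaling and 2 with both. The median of the replication genes was 0.09 to 0.42 with 1 mouse left out. The cause of these differences was not tested.

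Gmnn changed sign with median-of-ratios scaling (-0.07), with quantile normalization (0), without non-targeting mouse 1 and with scaling (-0.06), and on protein-coding transcripts with scaling (-0.09, and -0.11 without that mouse). Gins1 did so on protein-coding transcripts with scaling (-0.21, and -0.07 without that mouse) and on its most abundant transcript alone (log2 ratio -0.01), as did Fen1 (-0.13). Lig1 was above 0 without CRISPRi mouse 1 (0.12) or non-targeting mouse 1 (0.04) and on protein-coding transcripts (0.11, 0.37 without non-targeting mouse 1 and 0.09 with scaling as well). With 1 mouse left out, Lig1 ranged from -0.36 to 0.12 and Rrm2 from -0.52 to 0.37. Rrm2 was above 0 with array weights (0.21), without CRISPRi mouse 1 (0.10), without non-targeting mouse 1 (0.37, also on protein-coding transcripts) and without that mouse and with scaling (0.03).

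The mouse number as a replicate block gave 2 genes called, 0 of the replication genes, with 2 higher and 2 lower at an unadjusted p below 0.05 and a median of 0.23. Same-numbered mice had correlations of their deviations of 0.061, -0.096 and -0.277. These do not show pairs, but cannot tell whether same-numbered mice were handled together. TPM keep no depth, so the precision of genes near 1 TPM, such as Chaf1a, Uhrf1 and the coding transcript of Mcm10, is unknown.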
